A study of Drosophila melanogaster with 18 samples.

Results

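Among the genes of Drosophila melanogaster that the deposited tables list under a CG number alone, 92 were at a higher level in Nxt1 trans-heterozygotes than in w1118 controls at each of 3 stages. They were chosen by their measured level: a single CG-numbered symbol off chromosome 4, a ratio of (trans-heterozygote FPKM + 1) to (w1118 FPKM + 1) of at least 1.5 at every stage, and at least 3 FPKM in the trans-heterozygotes at some stage. FPKM is a level per length, the fragments of a gene relative to its transcript length and to all fragments sequenced. The 92 genes were taken from 14542 gene entries, of which 7120 carried a CG number alone and lay off chromosome 4, so 1.29% of these entries were members. By the mirrored rule, 1153 of the same 7120 entries, or 16.2%, were lower at every stage.

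RNA was sequenced from whole animals in 18 samples, 3 for each genotype and stage. The controls were of the strain w1118. The other animals carried the alleles Nxt1 DG05102 and Nxt1 Z2-0488 in trans and were labelled as strain yw, so the alleles and the strain background cannot be told apart. All larvae fed on food with 0.05% bromophenol blue: wandering larvae were third-instar larvae with a blue gut, stationary larvae had stopped moving and had a clear or faintly blue gut, and white prepupae had a white case and were within an hour of its formation. The labels do not say whether samples came from separate crosses, or how many animals each held. The deposited tables hold 1 pooled FPKM per genotype and stage, with no value per replicate and no counts. The spread between samples is therefore known only through the standard error (SE) that the authors' test implies, and the depth of each sample is unknown.

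Nxt1 is the small partner of the export receptor sbr, the fly NXF1, and the pair carries mature messenger RNA from the nucleus to the cytoplasm. A CG number is the systematic name that the fly genome annotation gave to each predicted gene, and a gene keeps it alone until it is named after a phenotype, a domain or an orthologue. Genes still listed by number have mostly no described function, and many are expressed in 1 tissue or at 1 time in development. In whole animals, a change in the number of cells of a type and a change in RNA per cell cannot be told apart.

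All 92 numbers matched an entry of the RefSeq gene table for the current assembly, 1 of them through a synonym. The description as unnamed genes held only in part: 14 of the 92, or 15.2%, now carry a name, beside 22.6% of all CG-numbered entries off chromosome 4. CG43132 is now listed as a non-coding RNA, lncRNA:CR43132, and the other 91 are protein-coding. No role is given below for the 77 protein-coding genes that still have a number only.

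The size of the genotype difference chose the members, so the following levels and ratios are descriptions. The members' median log2((FPKM + 1) ratio) stood at 0.94, 1.30 and 1.15 for wandering larvae, stationary larvae and prepupae, beside 0.00, 0.00 and -0.01 over all 14542 entries. The largest value was close to 4 at each stage: 4.13, 4.15 and 4.16. The ratio was 2 or more for 41, 61 and 57 of the 92 genes in stage order, and 4 or more for 8, 20 and 14. It was largest in stationary larvae for 43 genes, in prepupae for 40 and in wandering larvae for 9. The members spanned a wide range of levels: their highest trans-heterozygote FPKM was below 10 for 17 genes, from 10 to 100 for 51, and 100 or more for 24.

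In the authors' deposited table, a gene was counted as called when its test status was OK and its q, the authors' p adjusted over the table, was at most 0.05. In wandering larvae 44 of 92 members were called higher, beside 2.29% of all tested genes. In stationary larvae 60 of 92 were called higher, beside 4.7% of all tested genes, and in prepupae 52 of the 90 tested, beside 4.03%. The rule used this same contrast, so nothing is read from these shares, and no member was called lower at any stage. Calls were made at all 3 stages for 31 members, beside 0.661% of genes tested at all 3, at 2 stages for 22, at 1 stage for 19 and at none for 20. At 1 or more stages 72 members were called, beside 7.07% of genes tested at any. At a q of at most 0.01 the counts were 31, 49 and 41 in stage order, beside 1.51%, 3.19% and 2.5% of the tested genes. For the 20 uncalled genes the pooled levels alone were higher, and the authors' test was not passed.

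**Figure D1:**
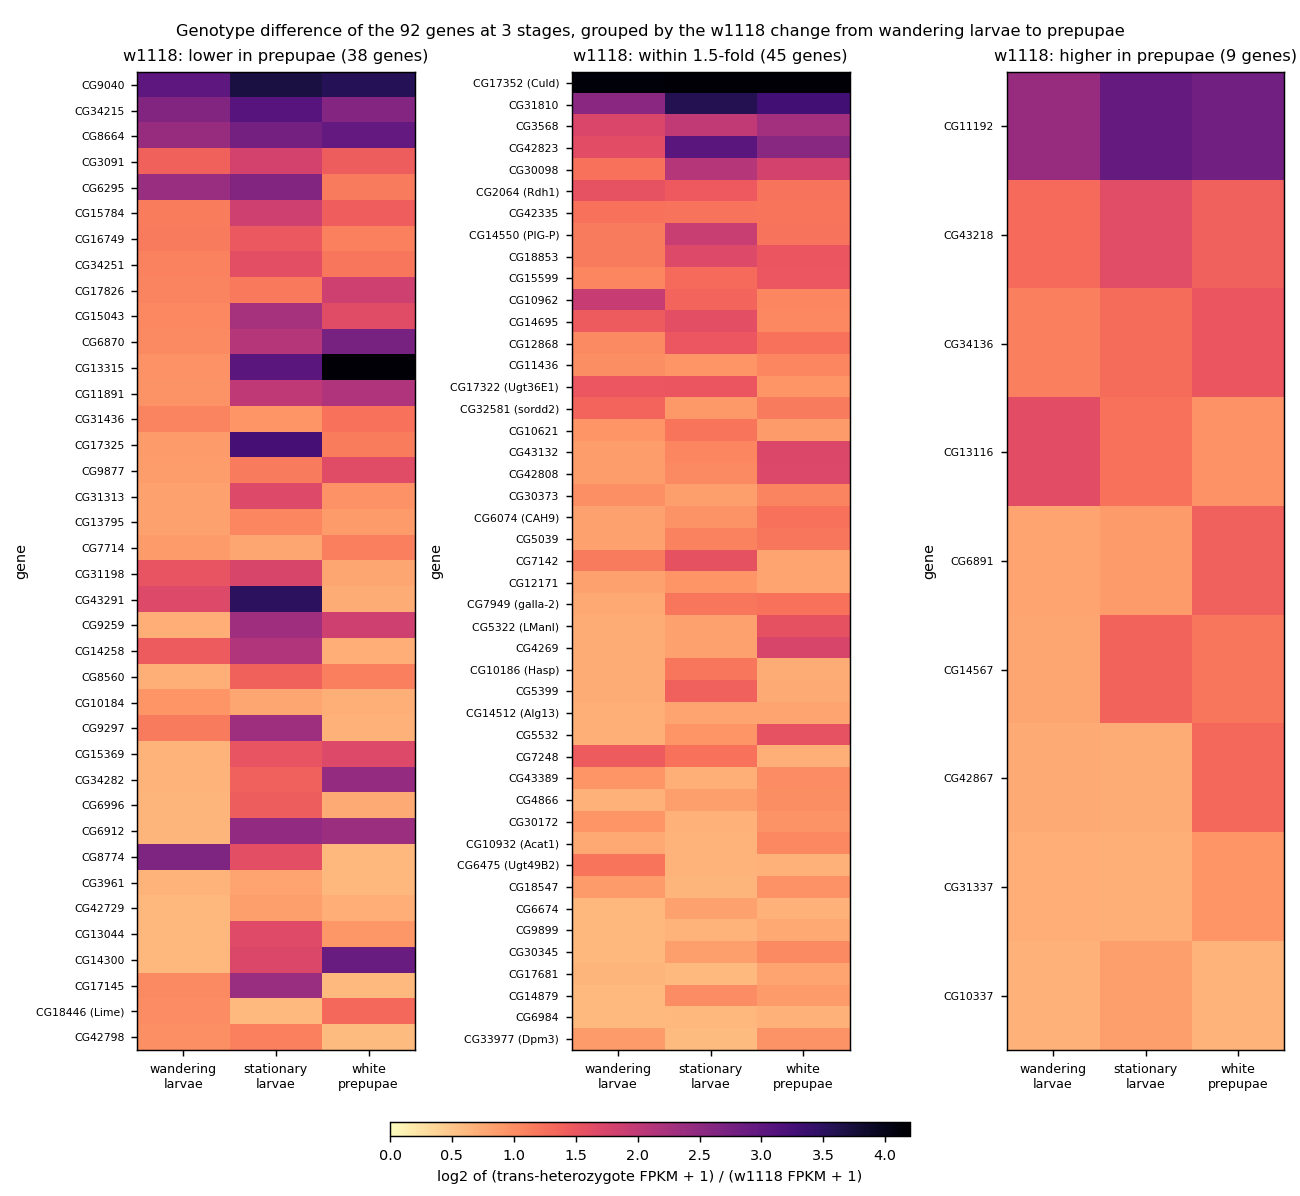
Genotype difference of each of the 92 genes, as log2 of (trans-heterozygote FPKM + 1)/(w1118 FPKM + 1), at the 3 stages, with darker colour for a larger difference. Genes are grouped by their w1118 level in prepupae over wandering larvae (38 lower, 45 within 1.5-fold, 9 higher) and ordered in each panel by their smallest difference; CG17352 is dark at every stage, and in the panel of 38 genes the stationary column is the darkest for 24.

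CG17352, now named Culd after its CUB and LDLa domains, had the largest difference that held over all stages. Its level was 0.540 FPKM in w1118 and 25.9 in the trans-heterozygotes as wandering larvae, 0.733 and 29.8 as stationary larvae, and 1.21 and 38.5 as prepupae. None of its w1118 values exceeded 1.21 FPKM, and none of its trans-heterozygote values was below 25.9. The log2 fold change was 5.58 ± 0.80 (SE), 5.34 ± 0.71 and 4.99 ± 0.37 in stage order, and the gene was called higher at each stage. The gene lies on 3L at 8345455 to 8349396 in the deposited coordinates, whose build is not given in the sources used here, at a locus it shares with another entry.

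CG9040 reached the highest level of any member. It stood at 179.9 FPKM in w1118 and 1434 in the trans-heterozygotes as wandering larvae, 27.3 and 367 as stationary larvae, and 2.39 and 39.1 as prepupae. The level was lower at each later stage in both genotypes, by 75.3-fold over the period in w1118 and by 36.7-fold in the trans-heterozygotes. The log2 fold change between genotypes was 2.99 ± 0.21, 3.75 ± 0.28 and 4.03 ± 0.61, and the gene was called higher at each stage. Its model codes for a protein of 161 residues from 1 exon, within a deposited locus shared with CG17362. CG17362 itself had 4.85 FPKM in w1118 and 30.9 in the trans-heterozygotes as stationary larvae, where the authors' deposited table called it higher too.

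CG8664 was also lower at each later stage. It had 101 FPKM in w1118 and 538 in the trans-heterozygotes as wandering larvae, 34.1 and 237 as stationary larvae, and 6.43 and 56.2 as prepupae. This held in both genotypes, and the ratio between them went from 5.33 through 6.95 to 8.73. The log2 fold change was 2.41 ± 0.22, 2.80 ± 0.27 and 3.13 ± 0.41, called higher at each stage.

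CG31810 and CG42823 were highest in stationary trans-heterozygotes. CG31810 had 1.52 FPKM in w1118 and 13.6 in the trans-heterozygotes as wandering larvae, 1.89 and 33.9 as stationary larvae, and 0.732 and 16.0 as prepupae. Its log2 fold change was 3.16 ± 0.57, 4.16 ± 0.52 and 4.45 ± 0.77. CG42823 kept nearly the same w1118 level throughout, 14.2, 14.4 and 13.5 FPKM, against 45.3, 124 and 84.4 in the trans-heterozygotes. Its log2 fold change was 1.68 ± 0.46, 3.11 ± 0.42 and 2.64 ± 0.41. Both genes were called higher at each stage, and for CG42823 the stage differences lay in the trans-heterozygote values.

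CG11192 went the opposite way over the stages from CG9040. Its w1118 level was 0.0736, 0.928 and 6.94 FPKM in stage order, and its trans-heterozygote level 4.68, 13.7 and 54.5. Both genotypes were higher at each later stage, and the gene was called higher in the trans-heterozygotes as stationary larvae (log2 fold change 3.89 ± 0.82) and prepupae (2.97 ± 0.34). In wandering larvae its log2 fold change of 5.99 carried an SE of 2.54 and the q was 0.125 in the authors' deposited table.

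**Figure D2:**
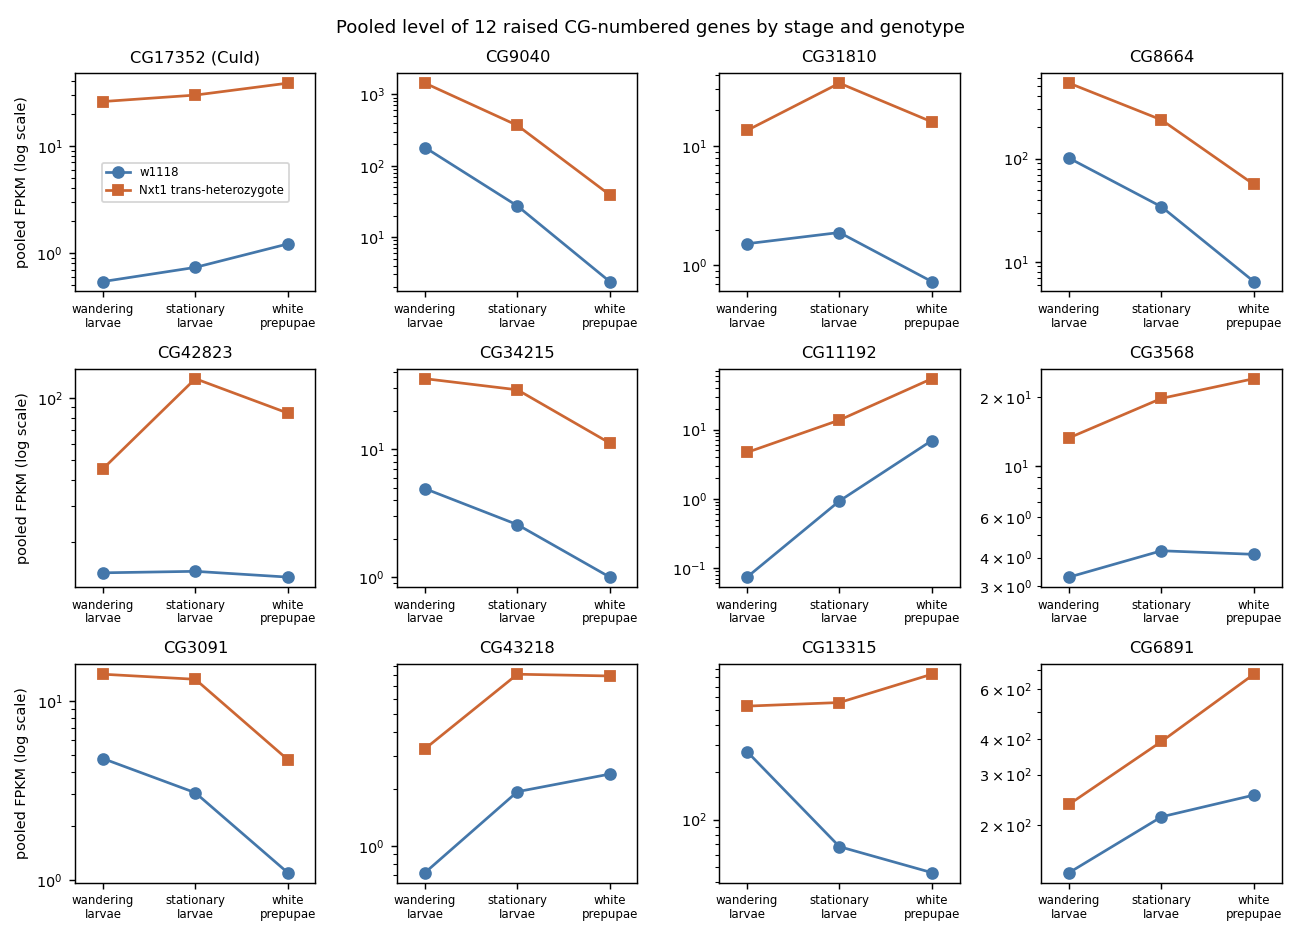
Pooled FPKM (log scale, a separate axis range for each gene) of 12 of the genes in wandering larvae, stationary larvae and white prepupae, for w1118 (blue circles) and the Nxt1 trans-heterozygotes (orange squares); each point is 1 deposited value pooled over 3 samples, so no error bars are drawn. CG9040, CG8664, CG34215 and CG3091 were lower at each later stage in both genotypes. CG17352, CG11192 and CG6891 were higher at each later stage in both, and CG13315 was lower in w1118 and higher in the trans-heterozygotes.

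CG13315 had the widest range of genotype difference over the stages, 3.20 on the log2((FPKM + 1) ratio) scale. In w1118 its level was 270.5, 67.4 and 46.1 FPKM in stage order. In the trans-heterozygotes it was 526, 554 and 839. The log2 fold change was 0.96 ± 0.20, 3.04 ± 0.24 and 4.19 ± 0.21, and the gene was called higher at each stage. The w1118 level was 5.87-fold lower in prepupae than in wandering larvae, while the trans-heterozygote level was 1.59-fold higher, so the genotypes went opposite ways. CG13315 codes for 69 residues in 1 exon.

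CG17325, which codes for 77 residues, stood apart in stationary larvae. It had 157 FPKM in w1118 and 288 in the trans-heterozygotes as wandering larvae, 36.6 and 357 as stationary larvae, and 6.25 and 15.0 as prepupae. The log2 fold change was 0.88 ± 0.21, 3.28 ± 0.28 and 1.26 ± 0.49. It was called higher in both larval stages, and the q in prepupae was 0.0584. CG8774 had its highest levels in wandering larvae, 1.47 FPKM in w1118 and 14.8 in the trans-heterozygotes, against 0.115 and 0.737 in prepupae, where it was not tested. CG43291 is the only member listed at 0 in any group: its w1118 value in stationary larvae was 0 beside 10.3 FPKM in the trans-heterozygotes, and its other values were 2.80 and 11.2 in wandering larvae and 0.483 and 1.47 in prepupae. The authors' deposited table called CG43291 higher in stationary larvae alone, with a q of 0.00061.

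Among the 10 members with the highest levels, CG6891, CG7714, CG15784 and CG10962 differed by less than 4-fold at every stage. CG6891 had 136 FPKM in w1118 and 236 in the trans-heterozygotes as wandering larvae, 213 and 392 as stationary larvae, and 254 and 676 as prepupae, with a log2 fold change of 0.80 ± 0.22, 0.88 ± 0.21 and 1.41 ± 0.15. CG7714 had 351 and 647, 262 and 452, and 56.7 and 125 FPKM in the same order. CG15784 had 121 and 268, 65.4 and 239, and 47.9 and 130 FPKM. CG10962 had 69.6 and 268, 80.3 and 206, and 85.0 and 178 FPKM. These 4 genes were called higher at all 3 stages. CG10962 was the one of them whose ratio was smaller at each later stage, 3.86, 2.57 and 2.10. CG6891, CG7714 and CG10962 each share a deposited locus with other entries, so the assignment of their reads is uncertain. CG7715, at the locus of CG7714, had 302 FPKM in w1118 and 296 in the trans-heterozygotes as wandering larvae. It had 247 and 181 FPKM as stationary larvae and 61.6 and 37.5 as prepupae, and was called at no stage.

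Of the members that now have a name, several belong to enzyme families, and 10 of the 14 were called higher at 1 or more stages (71.4%) and 4 at all 3 (28.6%), near the 78.3% and 33.7% of all 92 members and beside 7.07% and 0.661% of all tested genes. Rdh1 (CG2064), of the retinol dehydrogenase family, had 9.32 FPKM in w1118 and 29.1 in the trans-heterozygotes as wandering larvae, 7.55 and 22.8 as stationary larvae, and 6.46 and 16.5 as prepupae, called higher at each stage. Rdh1 shares its deposited locus with CG12042, so the assignment of its reads is uncertain. LManI (CG5322), a lysosomal alpha-mannosidase, had 17.5 and 29.8, 27.2 and 48.7, and 25.8 and 78.7 FPKM in the same order, also called at each stage. Acat1 (CG10932), an acetyl-CoA acetyltransferase of mitochondria, was called in wandering larvae (17.3 and 30.01 FPKM) and prepupae (13.2 and 28.4), with 14.3 and 23.3 FPKM and a q of 0.0543 in stationary larvae. CAH9 (CG6074), a carbonic anhydrase, was called in prepupae alone, at 3.75 and 10.2 FPKM. The remaining genes called at all 3 stages among the named ones were CG17352, above, and sordd2 (CG32581), described with its isoforms below.

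A pair of UDP-glycosyltransferases, a family that attaches sugars to small lipophilic molecules, was present at a low level. Ugt49B2 (CG6475) had 1.37 FPKM in w1118 and 4.48 in the trans-heterozygotes as wandering larvae, where it was called, and 0.760 and 1.82 in prepupae. Ugt36E1 (CG17322) had 1.36 and 5.67 FPKM as wandering larvae and 0.749 and 4.01 as stationary larvae, and was called at no stage. Ugt36E1 shares its deposited locus with CG17597, so the assignment of its reads is uncertain. CG17597 had 17.7 FPKM in w1118 and 37.1 in the trans-heterozygotes as stationary larvae, and was called higher there and in prepupae.

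Enzymes that build sugar chains and lipid anchors in the endoplasmic reticulum were represented by 3 members, whose roles are known from human and yeast cells. PIG-P (CG14550), a subunit of the enzyme that starts the synthesis of GPI anchors, had 3.74 FPKM in w1118 and 16.8 in the trans-heterozygotes as stationary larvae, and was called there and in prepupae (6.02 and 15.5 FPKM). Dpm3 (CG33977), a subunit of dolichol-phosphate mannose synthase, had 16.3 and 25.1 FPKM as stationary larvae. Alg13 (CG14512), of the assembly of dolichol-linked glycans, had 1.5 and 3.34 FPKM at that stage. Neither Dpm3 nor Alg13 was called at any stage. PIG-P and Alg13 each share a deposited locus with another entry, so the assignment of their reads is uncertain. CG14543, at the locus of PIG-P, had 32.7 FPKM in w1118 and 42.6 in the trans-heterozygotes as wandering larvae. It had 39.5 and 25.9 FPKM as stationary larvae and 40.2 and 22.2 as prepupae, and was called at no stage.

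The remaining named members were at modest levels. galla-2 (CG7949), of the MIP18 family, was called in stationary larvae (8.49 and 20.7 FPKM) and prepupae (9.81 and 24.6). Hasp (CG10186), a scaffold protein of synapses, was called in stationary larvae alone, at 1.05 and 3.68 FPKM. Lime (CG18446), a zinc-finger protein, had 3.62 FPKM in w1118 and 8.31 in the trans-heterozygotes as wandering larvae and was called at no stage. Lime shares its deposited locus with other entries, so the assignment of its reads is uncertain.

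The level of many members in w1118 differed between stages. Levels of different stages come from tables that the authors scaled separately; the median over the 9308 entries at 1 FPKM or more in all groups was 15.8, 17.4 and 16.5 FPKM in w1118 and 14.6, 16.0 and 15.2 in the trans-heterozygotes, in stage order. Of 73 members at 3 FPKM or more in w1118 in either stage, 35, or 47.9%, were at least 1.5-fold lower in prepupae than in wandering larvae, beside 12% of all entries at that level. At least 4-fold lower were 24 of the 73, or 32.9%, beside 4.59% of all entries. Of the genes that were lower in the trans-heterozygotes at every stage, 1.98% were at least 1.5-fold lower in w1118 prepupae than in wandering larvae. A low w1118 level at any stage makes a large ratio at that stage more likely, and the rule used those levels, so these shares were not tested.

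Across all 92 members, on the (FPKM + 1) ratio, 38 were at least 1.5-fold lower in w1118 prepupae than in wandering larvae, 45 were within 1.5-fold and 9 were at least 1.5-fold higher. The 38 genes had a median w1118 level of 43.9, 14.3 and 3.47 FPKM in stage order. In the trans-heterozygotes their medians were 89.2, 59.0 and 12.7 FPKM. The median fold difference between genotypes was 2.06, 3.54 and 3.25 in stage order, and 24, 33 and 20 of the 38 were called higher, beside 2.29%, 4.7% and 4.03% of all tested genes. For 24 of the 38 the difference was largest in stationary larvae. A low w1118 level in prepupae chose this class and is also the denominator of the ratio, so nothing is read from the size of its later ratios.

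In the same 38 genes, 32 were at least 1.5-fold lower in prepupae than in wandering larvae in the trans-heterozygotes as well. The trans-heterozygote level in stationary larvae was at or above the w1118 level in wandering larvae for 29 of the 38. The trans-heterozygote level in prepupae was at or above the w1118 level in stationary larvae for 20. The lower level in prepupae was thus present in both genotypes for 32 of the 38. The rule required a higher trans-heterozygote level at every stage, so nothing is read from the counts of 29 and 20.

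The other classes had lower levels in wandering larvae, with w1118 medians of 5.85 FPKM for the 45 genes and 6.69 for the 9. The 45 genes within 1.5-fold had a median fold difference of 2.09, 2.27 and 2.39, and 18, 23 and 25 of them were called, beside the same 2.29%, 4.7% and 4.03% of all tested genes. The 9 genes higher in w1118 prepupae had medians of 1.94, 2.51 and 2.66, and 2, 4 and 7 were called; all 9 were also at least 1.5-fold higher in trans-heterozygote prepupae than in wandering larvae. A current name was carried by 13 of the 45 genes within 1.5-fold, 1 of the 38 that were lower (Lime) and 0 of the 9 that were higher. The shares by class over all CG-numbered entries are not given here, so nothing is read from these counts.

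Over all 92 members, the change from wandering larvae to prepupae was more upward, or less downward, in the trans-heterozygotes than in w1118 for 67 genes (72.8%), beside 47.2% of entries at 3 FPKM or more in some group. From wandering to stationary larvae this held for 70 genes (76.1%), beside 45.7%. This is the same fact as a larger genotype ratio at the later stage, and the rule used those ratios. At least 1.5-fold higher in prepupae than in wandering larvae were 9 members in w1118 (9.78%, beside 10.5% of all entries) and 17 in the trans-heterozygotes (18.5%, beside 12.6%). Those shares of all entries include entries at very low levels. Among entries at 3 FPKM or more in either stage of the genotype, the shares in w1118 were 11% of members and 13.2% of all. In the trans-heterozygotes they were 18.5% and 17.2%, so the members were close to all entries at that level.

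**Figure D3:**
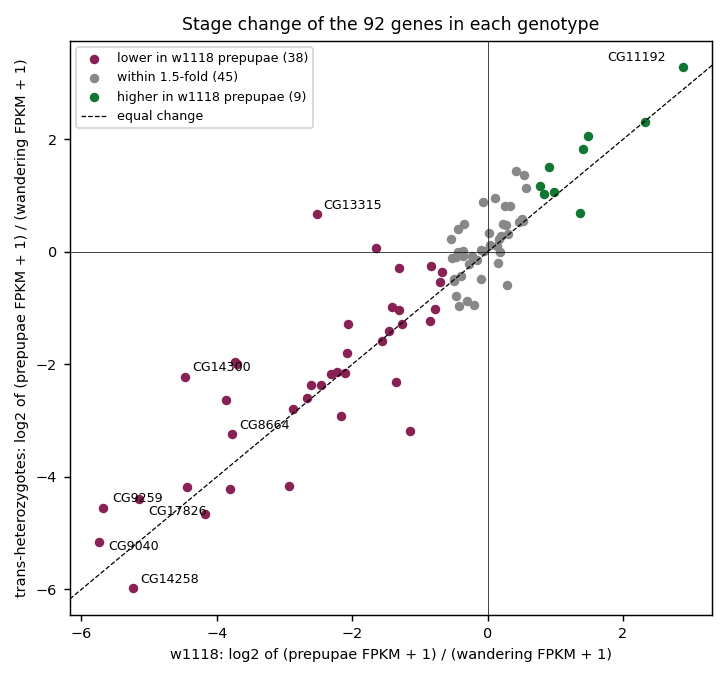
Log2 of (prepupae FPKM + 1)/(wandering FPKM + 1) for each of the 92 genes in w1118 (x axis) and in the Nxt1 trans-heterozygotes (y axis), coloured by the w1118 class; the dashed line marks an equal change. The 38 genes lower in w1118 prepupae lie on the left, 67 of the 92 points lie above the line, and CG13315 lies left of 0 on the x axis and above 0 on the y axis.

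On the log2 of (FPKM + 1) scale, the largest w1118 differences between wandering larvae and prepupae after CG9040 were those of CG9259, CG14258, CG17826 and CG14300; the folds that follow are of FPKM itself. CG9259 had 126, 11.1 and 1.47 FPKM in w1118 and 208, 59.4 and 7.90 in the trans-heterozygotes, an 85.4-fold and a 26.3-fold lower level in prepupae. CG14258 had 93.8, 12.5 and 1.51 FPKM in w1118 and 259.6, 58.6 and 3.12 in the trans-heterozygotes, 62.0-fold and 83.1-fold lower. In pooled level, the stage difference of CG9259 was thus smaller in the trans-heterozygotes than in w1118, and that of CG14258 larger. The log2 fold change between genotypes of CG9259 was 0.73 ± 0.20 in wandering larvae and 2.43 ± 0.82 in prepupae. For CG14258 it was 1.47 ± 0.21 and 1.05 ± 0.76, with a q of 0.448 in prepupae in the authors' deposited table. Neither contrast of stage differences was tested. CG17826 had 120.1, 49.3 and 2.41 FPKM in w1118 and 254, 112 and 11.2 in the trans-heterozygotes. CG14300 had 191, 95.6 and 7.69 FPKM in w1118 and 297, 316 and 63.0 in the trans-heterozygotes, so its trans-heterozygote level was no lower in stationary than in wandering larvae. CG9259 and CG17826 were called higher at each stage, CG14258 in both larval stages and CG14300 from stationary larvae on.

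Some members had deposited loci near each other. Distances here and below are between deposited loci. CG34136, CG7248 and CG7714 share theirs with other entries, so the distances of those genes themselves are unknown. Within 10 kb of another member were 17 of the 92, or 18.5%, beside 349 of the other 7028 CG-numbered entries (4.97%) that had a member within that distance. The 17 genes formed 9 pairs. CG34282 lies on 3R at 14520974 to 14521498, 1546 bases from CG14300 and 9676 bases from the shared locus of CG7714. These 3 genes were all lower in w1118 prepupae. CG34282 had 225 FPKM in w1118 and 357 in the trans-heterozygotes as wandering larvae, 136 and 362 as stationary larvae, and 16.0 and 91.7 as prepupae. CG34282 and CG14300 both had a ratio below 2 in wandering larvae and above 5 in prepupae, and each codes for 94 residues, whereas the ratio of CG7714 was near 2 at every stage.

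The pairs differed in how alike their courses were. CG9259 and CG34136 on 2L were 3967 bases apart, and CG34136 was higher, not lower, at the later stages in w1118, at 7.63, 13.4 and 13.7 FPKM, against 17.8, 34.2 and 41.2 in the trans-heterozygotes. CG17826 and CG7248 on 3L were 1858 bases apart, with CG7248 at 1.39, 1.53 and 1.08 FPKM in w1118 and 5.54, 4.99 and 2.38 in the trans-heterozygotes. CG42798 lies 1569 bases from CG42823 on 3R and had 42.9, 46.4 and 23.3 FPKM in w1118 against 85.7, 101 and 36.02. By the w1118 classes of 1.5-fold, the members of each of these 3 pairs fell into different classes.

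CG31198 and CG42335 on 3R were 1016 bases apart, and CG31198 had 33.3, 9.33 and 6.63 FPKM in w1118 against 98.0, 33.8 and 12.04, called higher at each stage. CG14258 and CG6074 (CAH9) were 8764 bases apart on 3R. On X, CG43132 and CG15599 were 633 bases apart, with CG15599 at 2.76, 2.76 and 1.77 FPKM in w1118 and 6.86, 8.29 and 6.87 in the trans-heterozygotes, called at each stage. CG43132 had 5.96, 6.91 and 4.46 FPKM in w1118 and 11.6, 15.5 and 16.9 in the trans-heterozygotes and was called at none. The last pair, CG3568 and CG11436, was given as 1 deposited locus of 13 entries, so it counts as a pair through that locus alone.

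Of 611 non-members of any name within 10 kb of a member, 5 passed the same ratio and level thresholds (0.818%), beside 84 of all 14450 non-members (0.581%). The 5 were Sytalpha, Adk2, Cpr67Fa1, Cpr67Fa2 and Cpr97Ea. Sytalpha, a synaptotagmin, shares a locus with CG6870 and had 0.944 FPKM in w1118 and 17.6 in the trans-heterozygotes as wandering larvae. CG6870 had 80.9 and 165 FPKM there, 31.5 and 139.8 in stationary larvae and 5.29 and 40.8 in prepupae, so its w1118 level was lower with stage while that of Sytalpha was 0.944, 1.47 and 1.63 FPKM. By arm, 31 of the 92 members lay on 3R (33.7%, beside 24.6% of CG-numbered entries off chromosome 4), 18 on 2R, 17 on 3L and 13 each on 2L and X.

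The members' median coding length was below that of CG-numbered genes at large. Over the 91 members with a coding model, the median coding length was 258 residues, beside 346 over all CG-numbered entries off chromosome 4 and 288 over the genes lower at every stage. Below 150 residues were 21 of 91 members (23.1%), beside 15.6% of all these entries and 19.2% of the lower genes. The lengths ran from 48 residues (CG43389) to 1677 (Hasp). A single exon was present in 17 members (18.7%), close to the 20.3% of all these entries, whereas 42.3% of the lower genes had a single exon.

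**Figure D4:**
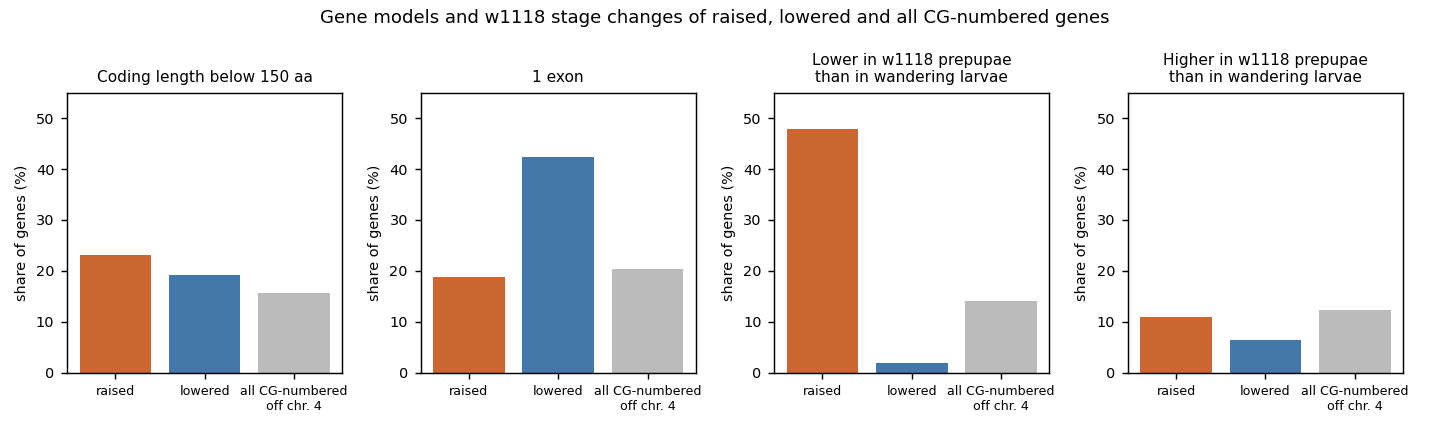
Share (%) of the 92 raised genes (orange), the 1153 genes lower at all stages (blue) and all 7120 CG-numbered entries off chromosome 4 (grey) with a coding length below 150 residues, with 1 exon, and, among genes at 3 FPKM or more in w1118, at least 1.5-fold lower or higher in w1118 prepupae than in wandering larvae; gene-model shares are over the genes with a model. The third panel shows 47.9% of the raised genes beside 1.98% and 14.1%, and the second 42.3% of the lowered genes. The raised and lowered sets were chosen by levels that include those of w1118 at these stages, so the stage shares were not tested.

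More than 1 isoform was listed for 25 members, 74 isoforms in all. The same isoform had the highest level in both genotypes at all stages in 19 of the 25. The authors' deposited tables of splicing, promoter and coding-sequence usage tested 13 members at 1 or more stages and called 4. In a single table and stage, from 1.93% to 10.2% of all that was tested was called. The score of these tables is a distance (the root of a Jensen-Shannon divergence) between the isoform shares of the genotypes, with 0 for equal shares. Isoform shares were not part of the rule. The matching shares over all genes, tables and stages together are not given here, so nothing is read from the counts of 19 and 4.

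The authors' deposited isoform tables called an isoform higher for 16 of 66, 33 of 72 and 35 of 71 tested members in stage order, beside 0.988%, 3.01% and 4.03% of the genes tested there. The start-site tables called 19 of 67, 37 of 73 and 38 of 77 tested members higher, beside 0.939%, 2.77% and 3.5%. For the 67 members with 1 isoform these are the values the rule used, so nothing is read from these counts.

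sordd2 (CG32581) was the only member called in the splicing table at all 3 stages, with scores of 0.377, 0.333 and 0.318 and q values of 0.000874, 0.000477 and 0.000293, beside calls for 2.69%, 5.88% and 9.78% of all groups tested there. Its gene level was 18.6 FPKM in w1118 and 48.9 in the trans-heterozygotes as wandering larvae, 25.1 and 47.6 as stationary larvae, and 21.2 and 48.8 as prepupae, called higher at each stage. One isoform accounted for nearly all of the w1118 level, at 18.2, 24.8 and 20.8 FPKM, against 27.8, 31.5 and 32.2 in the trans-heterozygotes. The other isoform was at 0.384, 0.308 and 0.446 FPKM in w1118 and at 21.1, 16.1 and 16.6 in the trans-heterozygotes. Most of the gene's difference in pooled level thus lay in an isoform that was below 1 FPKM in w1118 at every stage. In the authors' deposited isoform table this isoform was called higher in stationary larvae alone (q 0.0266), with a q of 0.706 in wandering larvae and 0.231 in prepupae.

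CG42335 was called in the splicing and the coding-sequence tables in stationary larvae, with a score of 0.787 in both; the coding-sequence tables called 1.93%, 6% and 7.47% of all genes tested in stage order. One of its isoforms had 0.0189, 0 and 0.389 FPKM in w1118 and 4.07, 5.58 and 4.39 in the trans-heterozygotes. The other had 1.16, 1.89 and 1.01 FPKM in w1118 and 0.0957, 0.192 and 0.127 in the trans-heterozygotes. CG42335 is the only member in which the leading isoform differed between the genotypes at every stage, at levels of a few FPKM.

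CG8560 and CG11891 were called in the promoter table in stationary larvae, where 8.43% of all tested genes were called (4.59% in wandering larvae and 10.2% in prepupae), with scores of 0.233 (q 0.004) and 0.273 (q 0.00051). The leading isoform of CG8560 had 125, 66.8 and 36.6 FPKM in w1118 and 226, 220.3 and 112 in the trans-heterozygotes, while the other had 16.4, 18.4 and 16.0 against 4.36, 4.16 and 4.05. The isoforms of CG8560 therefore differed between genotypes in opposite directions. CG11891 had 1 isoform at 8.61, 1.11 and 0.389 FPKM in w1118 and 61.3, 25.2 and 1.46 in the trans-heterozygotes, and another at 36.9, 14.4 and 1.82 against 27.1, 40.6 and 11.9. In 3 members, CG8560, CG42335 and CG6891, an isoform was at least 1.5-fold lower in the trans-heterozygotes at every stage. Their q in the authors' deposited isoform table was 0.105 or above, and the isoform of CG42335 was tested in stationary larvae alone. In CG6891 that isoform was minor, at 2.86, 7.03 and 9.47 FPKM in w1118 and 1.20, 1.15 and 0.883 in the trans-heterozygotes.

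**Figure D5:**
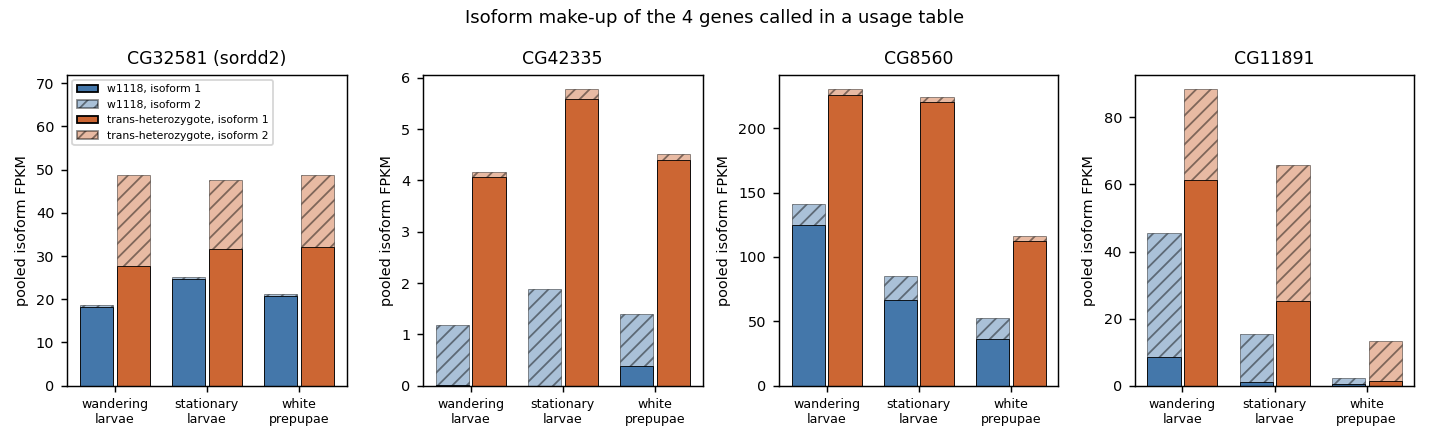
Pooled isoform FPKM, stacked to the gene's level, of the 4 genes called in a usage table, in w1118 (blue) and the Nxt1 trans-heterozygotes (orange) at 3 stages; solid bars are isoform 1 and hatched bars isoform 2, with no error bars since each value is pooled. The hatched isoform of CG32581 is below 1 FPKM in w1118 and between 16 and 22 in the trans-heterozygotes, and in CG42335 the isoforms exchange their order.

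Where the deposited locus of a member overlaps another entry, the assignment of reads is uncertain, because the counting and its use of strand are not described. Such a shared locus was given for 29 of the 92 members (31.5%), beside 40.5% of all entries. Of the 29, 17 were called higher at 1 or more stages and 7 at all 3, and of the other 63, 55 and 24 were, beside 7.07% and 0.661% of all tested genes. The difference between shared and other loci was not tested. The 3 uncalled members with the highest trans-heterozygote level all shared a locus. CG6295 had 15.0 FPKM in w1118 and 83.0 in the trans-heterozygotes as wandering larvae, with a log2 fold change of 2.47 ± 1.26 and a q of 0.274, and lies among 12 entries given 1 locus. CG34215 had 4.92 and 35.6, 2.58 and 29.1, and 1.003 and 11.2 FPKM in stage order, with q values of 0.160, 0.247 and 0.513. CG10337, which shares its locus with ref(2)P, had 42.7 and 68.0 FPKM in prepupae, with a q of 0.232. In both larval stages the SE of these 3 genes was above the members' median of 0.43 in wandering and 0.42 in stationary larvae, and in prepupae that of CG10337, 0.36, was below the median of 0.44.

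CG3568 and CG11436, in the locus of 13 entries that spans 223590 bases, were both members. CG3568 had 3.29 and 13.3, 4.28 and 19.7, and 4.13 and 24.0 FPKM in stage order and was called in prepupae alone (q 0.0256). CG11436 had 4.29 and 9.55, 3.63 and 7.84, and 3.39 and 8.11 FPKM and was called at none. CG43218, with 0.721 and 3.27 FPKM in wandering larvae, had a log2 fold change of 2.18 with an SE of 3.00. CG3091, which shares no locus, had 4.76 and 14.1, 3.07 and 13.2, and 1.099 and 4.70 FPKM and was called in both larval stages.

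Near the ratio threshold, CG33977 (Dpm3), CG42798 and CG6984 were the last inside, with a smallest ratio of 1.51, 1.52 and 1.53. CG13102, CG13617 and CG42596 were the nearest outside, with 1.498, 1.497 and 1.495. CG13102 had 7.53 and 15.7 FPKM in wandering larvae, 4.30 and 14.8 in stationary larvae and 4.51 and 7.25 in prepupae, a pattern within the range of the members.

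Over the 6 pooled values, the entries whose level was most like that of a leading member are given with Pearson's r, as a description, since 6 values that share genotype and stage give high r for many genes. For CG17352 they were pds5, of the cohesin machinery (0.997), and the F-box protein ppa (0.997). The level of ppa was 28.8, 28.9 and 32.2 FPKM in w1118 and 49.4, 52.9 and 54.7 in the trans-heterozygotes, so the likeness is of shape and not of ratio. For CG9040 they were CG5002 (0.999) and the cytochrome P450 Cyp6a21 (0.998). For CG8664 they were Gclc, the catalytic subunit of the enzyme that starts glutathione synthesis (0.996), and CG9040 (0.994). CG31810 was most like CG5543 (0.998), and CG42823 most like CG10041 (0.998), which was below 0.2 FPKM in every group.

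Markers of several tissues differed between the genotypes. The summed level of 8 testis markers was 702 FPKM in w1118 and 30.6 in the trans-heterozygotes as wandering larvae, 984 and 48.7 as stationary larvae, and 802 and 26.8 as prepupae, with 8 of 8 called lower at every stage, beside 9.49%, 13.2% and 12.9% of all tested genes in stage order. Of 8 midgut markers listed, LManVI and alphaTry matched no entry. The 6 matched midgut markers summed to 3237 and 4828, 1874 and 3340, and 1068 and 1591 FPKM, with 4, 5 and 3 called higher. Of all tested genes, 2.29%, 4.7% and 4.03% were called higher in stage order. The 6 muscle markers summed to 629.9 and 1123, 143 and 557, and 52.6 and 98.1 FPKM, with 4, 6 and 2 called higher. The 92 members themselves summed to 3537 and 8427, 2093 and 6535, and 1370 and 4351 FPKM. The midgut and muscle sums were higher in the trans-heterozygotes at every stage. The members' own sum was higher by the rule that chose them, so nothing is read from its likeness to those sums.

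The other lists are given in the same order. Their calls stand beside the same 2.29%, 4.7% and 4.03% of all tested genes called higher, and 9.49%, 13.2% and 12.9% called lower. The 5 haemocyte markers summed to 52.3 and 148, 23.7 and 53.7, and 16.7 and 23.7 FPKM, with 4, 3 and 2 called higher. The 5 salivary glue genes summed to 139276 and 137311, 65446 and 74234, and 1701 and 2861 FPKM, with 0, 4 and 5 called higher. The 5 fat-body markers summed to 33682 and 39875, 25311 and 26624, and 20823 and 26437 FPKM, with 0, 1 and 1 called higher and 0, 0 and 1 called lower. The 4 Malpighian-tubule markers summed to 59.1 and 92.7, 20.3 and 78.9, and 7.91 and 9.12 FPKM, with 1, 1 and 0 called higher. The 4 cuticle markers summed to 26761 and 16453, 7758 and 6908, and 198 and 163 FPKM, with 0, 1 and 0 called higher and 1, 0 and 1 called lower. The midgut, muscle, haemocyte, fat-body and tubule sums were thus all higher in the trans-heterozygotes at every stage and lower at each later stage in both genotypes. The cuticle sum was lower in the trans-heterozygotes at every stage, and the glue sum was lower in wandering larvae. No matched marker in these lists was listed at 0 in any group. The part of these tissues in the members' levels was not tested.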

How the data were processed

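Whole-animal RNA was prepared with the ScriptSeq kit and sequenced as 100 bp paired ends, per the labels' protocols. Bowtie 1.1.1, Cufflinks and Cuffdiff are named per the submitters' processing notes; the sources used here give no settings, annotation or genome build, and the deposited start of CG-numbered entries equalled that in Release 6 for 51% on 2L, 14.8% on 3L and 0% on 2R, 3R and X, so coordinates are those of the files, counted from 1. The authors deposited 18 tables with FPKM pooled per genotype and stage, per the file headers, together with a test statistic, a p-value and a q-value; the usage tables hold a deposited score, the root of a Jensen-Shannon divergence. Levels were scaled by the authors within a stage. The tables used here hold no counts, so the depth is unknown, and no test was made. The authors' p-values measure only the spread between samples that may be technical replicates.

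Members were found by the rule, with a pseudocount of 1 FPKM. Log2 fold changes are log2 of the ratio of deposited FPKM, and log2((FPKM + 1) ratio) understates the change of low genes. The SE is the size of the log2 fold change divided by that of the deposited statistic, after checking that the deposited p-value followed from its normal tail. A gene was called at status OK and q at most 0.05. Coding lengths, exon numbers and names came from Ensembl release 115 and the RefSeq table for Release 6; coordinates were not taken from them. The members and the lists were chosen with earlier results of these data known.

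Genes were named by a rule: the 5 markers of the group, the 10 largest smallest-stage ratios, the 10 highest levels, the 5 widest ranges and 5 largest w1118 stage changes, members listed at 0, the 3 highest uncalled, the 3 on either side of the threshold, chains of neighbours and the genes called in a usage table. Members with a current name, the neighbours and the closest entries in shape were added after their values were seen. Scripts were tested on simulated data. Alternatives were other pseudocounts, minimum levels, ratios, q thresholds, isoform or start-site tables, entries that share no locus, and stages scaled to the median. Python 3.11.15, pandas 2.3.3, numpy 2.4.6, scipy 1.17.1 and matplotlib 3.10.9 were used.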

Additional observations from a re-analysis of the deposited data

How the results depend on the processing

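The number of genes that met the rule was 34 with a pseudocount of 10 FPKM, all of them among the 92, and 27 with a ratio of at least 2. It stayed within 1.5 times of 92 under the other settings, from 63 without entries that share a locus to 135 with a pseudocount of 0.1. With a pseudocount of 10 the members' median log2 ratio became 0.61, 0.761 and 0.65 in stage order, beside 0.94, 1.30 and 1.15 with 1, since a larger pseudocount shrinks low genes. Members called higher numbered 19 through start-site groups and 16 through isoforms in wandering larvae, and 37 and 33 in stationary larvae, where fewer members were tested (67 and 66, then 73 and 72). The counts of members higher in prepupae stayed within 1.5 times in both genotypes under median scaling and a pseudocount of 0.1. No paired analysis was possible because the deposited tables hold 1 pooled value per genotype and stage, and for the same reason no replicate was left out. Promoter letters and protein families were not analysed here. Unknown depth limits the genes below about 3 FPKM most.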
